A study of Mus musculus with 7 samples.

Results

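The collagen genes of the mouse were followed across 7 sorted cell populations, each read on 1 single-colour Agilent array of 60-base probes. The members were all probes whose gene name has the form Col, number, a, number. These were 69 of the 55681 probes on the array, and they stand for 44 of its 34942 gene names: 11 fibrillar, 9 network, 9 FACIT, 4 transmembrane and 6 beaded-filament chains, 2 multiplexins, the anchoring fibril chain Col7a1, and Col26a1 and Col28a1. The series, by its title, concerns the origin of muscle precursors in the dermis. The Sdc4+ group held 3 populations: Myf5SOR+ cells, traced with Cre inserted in Myf5, Cspg4- cells, the negative cells of a line with a Cspg4-cre transgene, and cells from the outbred CD1 stock. In the Sdc4- group were B195AP+ cells, traced with B195AP-Cre (no driver is given in the labels), again with Cspg4- and CD1 cells. A further array held Cspg4+ cells of the Cspg4-cre line, with no Sdc4 label. Sdc4 encodes the proteoglycan syndecan-4, a surface marker of muscle satellite cells, and Cspg4 encodes the proteoglycan NG2 of pericytes. The labels do not give ages, the sorting gates, the culture of the cells or what the traced cells of each line express besides the Cre. They give 8 to 10 animals for each population and 10 to 200 ng of RNA. Arrays of different lines served as the replicates of a group, so its SD holds differences between lines as well as technical spread.

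Collagens are secreted proteins built from 3 chains wound into a triple helix, in which glycine recurs at regular steps along each chain. Fibrillar collagens pack into the fibres that give the dermis its strength, network collagens form sheets such as the basement membrane, and FACIT chains bind to the surface of fibrils. Transmembrane collagens stay anchored in the cell, multiplexins sit near basement membranes, and beaded filaments of collagen VI link cells to the matrix around them. Fibroblasts are the main source of fibrillar collagen in skin.

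The repeat is visible in the probes themselves. A probe was counted as lying in a helix where at least 4 codons of the form GGN, which all encode glycine, followed each other every 9 bases. This held for 4 of the 69 collagen probes (5.80%) and for 51 of all 55681 probes (0.0916%). The 4 probes are shown because their genes are described below, 5′ to 3′ on the + strand. Capitals mark the glycine codons of the longest such run, and other glycine codons stay in small letters. Their positions are in mm9, as in the array files.
Col16a1, chr4:129756457-129756516: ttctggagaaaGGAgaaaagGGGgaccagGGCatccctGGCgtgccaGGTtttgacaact
Col15a1, chr4:47283786-47283845: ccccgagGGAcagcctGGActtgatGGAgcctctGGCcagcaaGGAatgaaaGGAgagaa
Col25a1, chr3:130270497-130270556: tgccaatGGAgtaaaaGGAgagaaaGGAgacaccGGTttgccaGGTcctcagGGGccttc
Col14a1, chr15:55347733-55347792: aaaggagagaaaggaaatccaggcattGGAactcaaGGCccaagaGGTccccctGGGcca
The Col15a1, Col25a1 and Col14a1 probes of this set are the ones that represent their genes.

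Levels are log2 processed intensities minus the 75th percentile of their array, so a value of 0 is the 75th percentile and 1 unit is 2-fold. They compare a probe between arrays and not 1 gene with another. Over the 7 arrays 25 to 31 of the 44 genes were well above background by at least 1 probe. The count was 25 on the Myf5SOR+ array, 28 on the Cspg4- Sdc4+, CD1 Sdc4+ and B195AP+ arrays, 26 on Cspg4- Sdc4-, 29 on CD1 Sdc4- and 31 on Cspg4+. The Cspg4+ array also had the largest share of all spots well above background, 57.2% against 45.9% to 50.8% on the others. A set of 23 genes was well above background on all 7 arrays, among them 8 of the 11 fibrillar chains, both multiplexins and the collagen VI chains Col6a1, Col6a2 and Col6a3. A further 11 genes were not well above background on any array. They include the main chain of cartilage, Col2a1, with its partner Col11a1, the hypertrophic cartilage chain Col10a1, Col4a3 of the kidney basement membrane, and Col22a1, a FACIT of tissue junctions. The others were Col6a4, Col6a5, Col8a2, Col9a3, Col13a1 and Col28a1. The test required a probe well above background on at least 3 arrays, which 42 of the 69 probes and 29 of the 44 genes met. Of the 15 genes that did not, Col6a6, Col8a1, Col9a1 and Col19a1 were seen on 1 or 2 arrays each.

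Fibroblast genes were present throughout. All 6 of 6 dermal fibroblast markers were well above background on every array, with summed levels of 483 to 855 times the 75th percentile. Of the chondrocyte markers Comp, Matn3, Hapln1 and Snorc were above background on none, Acan on 2 arrays and Sox9 on 7 (0.55 to 1.61). Of the endothelial markers Tie1, Tek and Emcn were above background on none, Cdh5 on 1, and Pecam1 (-2.49 to -1.37) and Kdr (3.45 to 4.25) on 7. Of the 6 keratinocyte markers 5 were above background on Cspg4+ and 1 to 3 on the other arrays. The part of cells of these types in the differences was not tested. Skeletal muscle markers differed with the Sdc4 label: 0 to 3 of 6 on the Sdc4+ arrays (summed level 0.202 to 1.24), 5 to 6 on the Sdc4- arrays (4.63 to 26.9) and 4 on Cspg4+ (1.18). Slide row 1 held the Sdc4+ arrays and row 2 the other 4, so slide row and label cannot be told apart. The part of muscle RNA and of slide row in the differences below was not tested. In bulk RNA of this kind, fewer cells of a type and less RNA per cell cannot be told apart. The B195AP+ array has a streaked region, with 689 outlier spots against 137 to 168 on the other arrays, and 14 of the 29 tested genes are represented by probes with spots there. Where the only spot of a probe lies there, a value given below without that region leaves out the B195AP+ array for that gene. Col1a2 and Col4a2 have no value on that array because their spots were marked as outliers, so their Sdc4- group has 2 arrays.

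**Figure D1:**
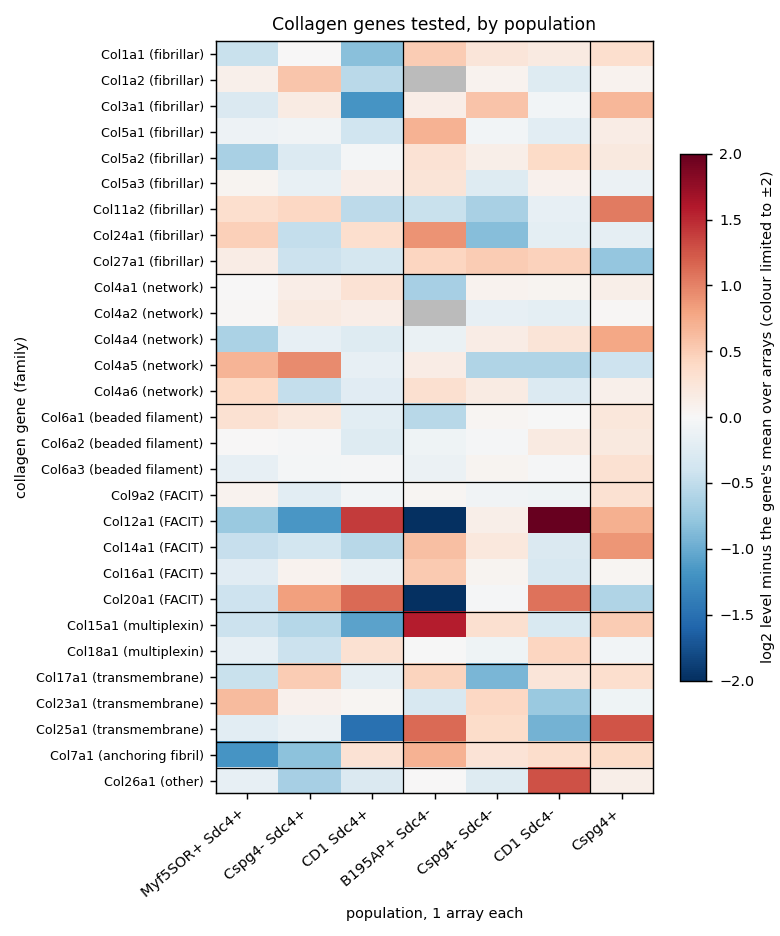
Level of each of the 29 tested collagen genes (rows, by family) on the 7 arrays (columns), as the log2 difference from the gene's own mean over the arrays; grey cells have no value. The strongest colours are in Col12a1 and Col20a1, which are low on the B195AP+ array and high on both CD1 arrays, and in Col15a1 and Col25a1, which are high on B195AP+.

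The chains differed widely in how far they moved between populations. The median range over the 7 arrays was 2.53-fold for the 29 collagen genes and 1.97-fold for all 19761 genes tested. The 3 collagen VI chains had the narrowest family median at 1.39-fold, and 3 of 3 stayed within 2-fold. Network chains had a median range of 1.93-fold, fibrillar chains 2.42-fold, transmembrane chains 2.69-fold and FACIT chains 2.73-fold. The 2 multiplexins had a median of 3.36-fold, Col7a1 a range of 3.68-fold and Col26a1 one of 3.85-fold. Values not well above background are included in these ranges. Among genes above background on all 7 arrays the widest range was that of Col12a1 at 20.7-fold, followed by Col20a1 at 8.83-fold and Col15a1 at 6.24-fold.

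The first comparison asked how cells with the satellite cell marker Sdc4 differ from cells without it. The means of 19 of the 29 collagen genes were lower in Sdc4+ than in Sdc4- cells and those of 10 were higher. No collagen gene passed an adjusted p of 0.05 in limma, as was true of all genes (0 of 19761, 0%). At an unadjusted limma p under 0.05 there were 6 lower and 0 higher collagen genes, against 5.41% lower and 3.29% higher of all genes. The 6 were the fibrillar chains Col1a1, Col5a2 and Col27a1, the FACIT Col14a1, the multiplexin Col15a1 and Col7a1 of anchoring fibrils, with adjusted p from 0.515 to 0.573. The 3 Sdc4+ arrays lay wholly below the 3 Sdc4- arrays in 6 collagen genes (9.72% of all genes) and wholly above in 1 (6.14% of all genes). The lower genes were Col1a1, Col5a2, Col27a1, Col14a1, Col15a1 and the dim Col4a4, while Col7a1 overlapped. The higher gene was Col4a2, which lacks a B195AP+ value. The median log2 difference was -0.12 for collagens and -0.06 for all genes. Few of the 6 genes with an unadjusted limma p under 0.05 kept it when 1 array was left out. They numbered 1 without Myf5SOR+, B195AP+ or Cspg4- Sdc4+, 2 without CD1 Sdc4+, 4 without CD1 Sdc4- and 0 without Cspg4- Sdc4-. Without the streaked region 3 kept it (Col7a1, Col15a1 and Col27a1), with normexp background correction 3 (Col1a1, Col5a2 and Col7a1), and with the line as a fixed block 2 (Col15a1 and Col27a1). All 6 kept it with quantile scaling, with the deposited series table and with the line as a random block, and 5 with each array centred on its median.

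**Figure D2:**
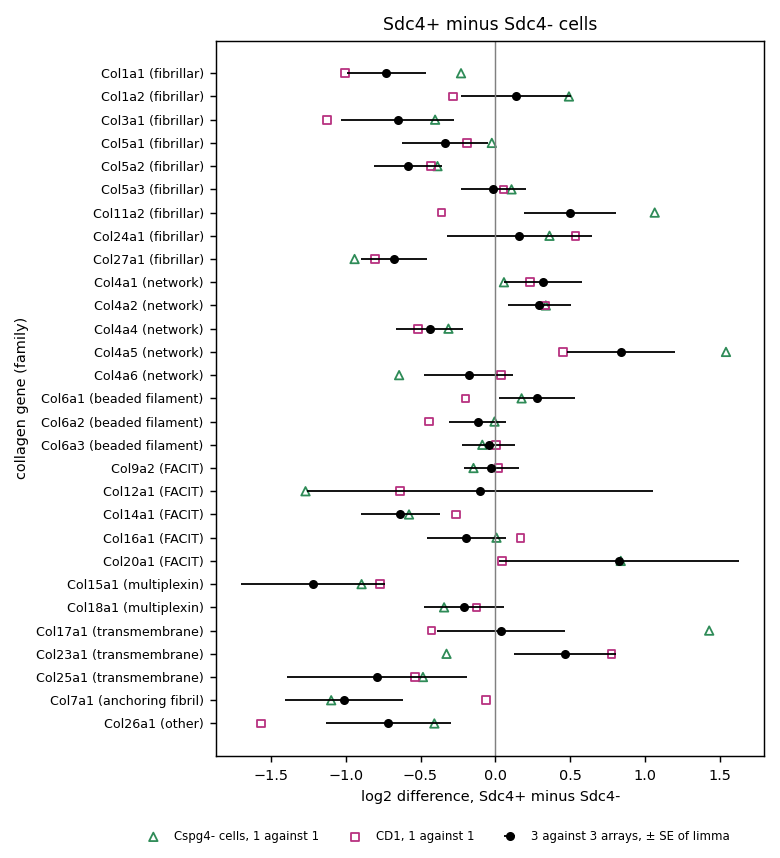
Log2 difference between Sdc4+ and Sdc4- cells for the 29 tested collagen genes; black points are group differences with the standard error of limma (3 against 3 arrays, 3 against 2 for Col1a2 and Col4a2), and open symbols are differences of single arrays in the Cspg4- cells (triangles) and CD1 (squares). Col15a1 and Col27a1 lie below 0 in both lines, Col4a2 lies above 0 in both at 0.34 and 0.33, and Col23a1 lies on opposite sides. The Cspg4- value of Col1a2 is uncertain, because its Sdc4- spot was saturated and its Sdc4+ spot was brighter still before scaling.

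Among the fibrillar chains, type I and type III collagen, the main fibres of the dermis, were bright on every array. Col1a1, the larger share of type I collagen, read 5.33 in Myf5SOR+, 5.78 in Cspg4- and 4.94 in CD1 Sdc4+ cells, and 6.28 in B195AP+, 6.01 in Cspg4- and 5.95 in CD1 Sdc4- cells. Every Sdc4+ value lay under every Sdc4- value, and the Cspg4+ array read 6.12. The difference was -0.73 ± 0.26 (SE; 3 against 3 arrays; limma adjusted p = 0.534), or -0.63 without the streaked region (3 against 2 arrays). Within lines it was -0.23 in Cspg4- cells and -1.01 in CD1.

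Col3a1, whose 3 identical chains form collagen III, read 5.93, 6.39 and 5.04 in Myf5SOR+, Cspg4- and CD1 Sdc4+ cells, 6.36, 6.80 and 6.17 in B195AP+, Cspg4- and CD1 Sdc4- cells, and 6.89 in Cspg4+ cells. The groups overlapped, and CD1 Sdc4+ was the lowest array for Col1a1 and Col3a1 alike. The difference was -0.65 ± 0.38 (SE; limma adjusted p = 0.671). Col1a1 and Col3a1 followed each other over the 7 arrays (Pearson r = 0.87, given as a description; the points share arrays and scaling). Col1a2, the partner of Col1a1 in the type I molecule, followed it less closely (r = 0.47 over 6 arrays). It read 8.45, 8.90 and 7.80 in the Sdc4+ populations in the same order, 8.41 and 8.09 in Cspg4- and CD1 Sdc4- cells, and 8.42 in Cspg4+ cells. Its spot was saturated on the Cspg4- Sdc4- and Cspg4+ arrays, so those values are lower limits. Before scaling, its Cspg4- Sdc4+ spot was brighter than these saturated spots, though not flagged, so that value may be held down too. The difference of 0.14 ± 0.37 (SE; 3 against 2 arrays; limma adjusted p = 0.933) was smaller than its error, and its sign turned with several settings.

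The promoters of Col1a2 and Col3a1 are shown as those of the dermal fibril chains whose start site the RefSeq table (GRCm38.p6) holds; 35 of the 44 genes matched it. Each is the 250 bases before the start, 5′ to 3′ on the + strand, with motif matches in capitals. The CCAAT box was searched as those 5 letters. For the GC box the letters were GGGCGG. The letters TATAAA stood for a core promoter element. Matches are marked on the strand printed.
Col1a2, chr6:4505368-4505617: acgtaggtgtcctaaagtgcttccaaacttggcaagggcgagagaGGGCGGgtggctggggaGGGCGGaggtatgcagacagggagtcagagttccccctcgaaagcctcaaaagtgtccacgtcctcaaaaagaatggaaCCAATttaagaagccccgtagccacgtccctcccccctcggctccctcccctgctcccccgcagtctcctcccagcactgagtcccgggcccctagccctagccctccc
Col3a1, chr1:45311288-45311537: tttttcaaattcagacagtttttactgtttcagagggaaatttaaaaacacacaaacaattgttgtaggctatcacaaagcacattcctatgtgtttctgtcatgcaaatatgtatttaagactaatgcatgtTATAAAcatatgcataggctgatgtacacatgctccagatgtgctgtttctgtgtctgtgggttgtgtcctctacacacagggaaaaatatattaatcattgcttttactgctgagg
The Col1a2 sequence holds 1 CCAAT and 2 GGGCGG matches, and that of Col3a1 holds 1 TATAAA. In the table's windows of 300 bases, which include the first 50 after the start, CCAAT occurred in 33.8% of all 32851 and 13 of 38 collagen windows (34.2%), TATAAA in 12.4% and 13.2%, and GGGCGG in 32.7% and 57.9%. Matches on the opposite strand are not all in these shares: Col4a1 was not counted for GGGCGG, though its window holds it there. A match is only a run of letters and says nothing of a factor bound there.

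Collagen V chains regulate the width of type I fibrils. Col5a2 read -0.49, -0.11 and 0.12 in Myf5SOR+, Cspg4- and CD1 Sdc4+ cells, 0.45, 0.28 and 0.55 in B195AP+, Cspg4- and CD1 Sdc4- cells, and 0.36 in Cspg4+ cells. The groups did not overlap, and the difference was -0.59 ± 0.23 (SE; limma adjusted p = 0.553). Col5a1 stayed between 4.34 and 4.89 on 6 arrays and reached 5.43 on B195AP+, where its spot lies in the streaked region. Its difference was -0.34 ± 0.29 (SE; limma adjusted p = 0.755) and -0.06 without that region. Col5a3 varied by 1.44-fold in all, from 5.36 in Cspg4- Sdc4- to 5.89 in B195AP+ cells, with a difference of -0.01 ± 0.22 (SE). The spots of Col5a2 and Col5a3 lie in the streaked region too, and without that region their differences were -0.57 and 0.10. The 3 chains of 1 collagen type gave 3 patterns, with pairwise r of 0.29 to 0.32 for Col5a1 with the other chains.

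Of the minor fibrillar chains, Col27a1, a chain of cartilage and developing tissue, had tight groups. It read -2.004, -2.59 and -2.50 in the Sdc4+ populations and -1.72, -1.65 and -1.70 in the Sdc4- populations, in the order given above. The difference was -0.67 ± 0.22 (SE; limma adjusted p = 0.515), and it was -0.94 in Cspg4- cells and -0.80 in CD1. The Cspg4+ array was the lowest of all at -2.92. With normexp background correction the Sdc4 difference was -0.20, so its size depends on how background is removed at this dim level. Col24a1, a fibrillar chain of bone and cornea, was highest in B195AP+ cells at -0.97 and lowest in Cspg4- Sdc4- cells at -2.71. Col11a2 was dim, at -3.83 to -2.14, and was above background on 5 arrays.

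**Figure D3:**
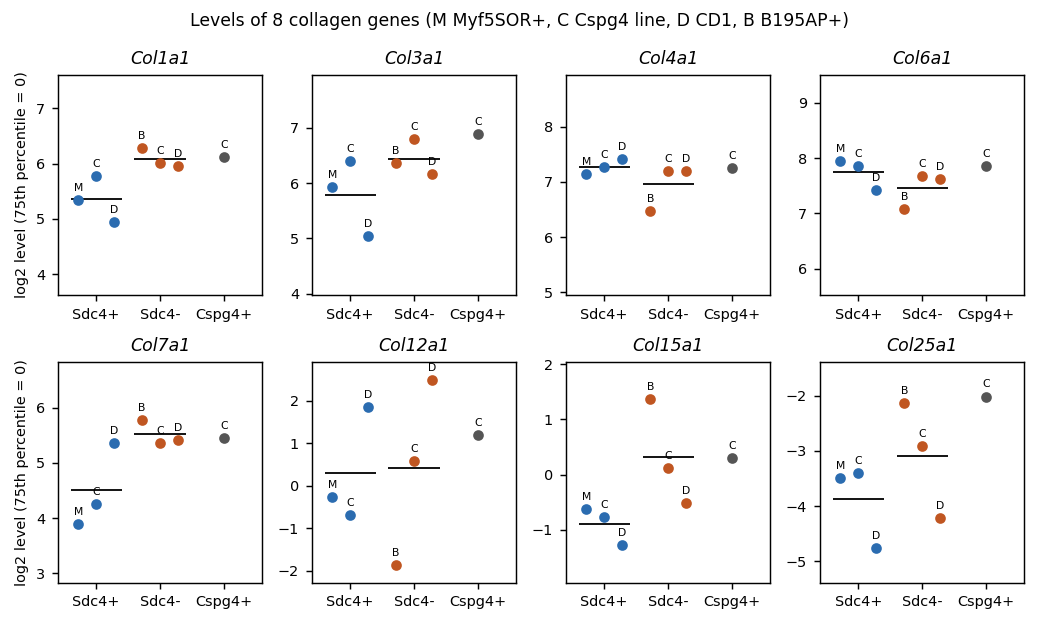
Levels (log2, array 75th percentile at 0) of 8 collagen genes, 1 point per array in the groups Sdc4+, Sdc4- and Cspg4+; letters give the line and bars the mean of 3 arrays. Col1a1 and Col15a1 separate the Sdc4+ and Sdc4- arrays, and Col7a1 does so except for CD1 Sdc4+ at 5.36. Col12a1 spreads from -1.87 in B195AP+ to 2.504 in CD1 Sdc4- cells, and from -0.68 to 1.19 within the Cspg4 line.

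Among the network chains, Col4a1 and Col4a2 form the collagen IV molecule found in nearly all basement membranes. The genes lie head to head on chromosome 8. Their annotated starts, at 11312826 for Col4a1 on the - strand and 11312805 for Col4a2 on the + strand (GRCm38.p6), overlap by 22 bases, shown on the + strand because both chains start from this stretch.
Col4a1/Col4a2, chr8:11312805-11312826: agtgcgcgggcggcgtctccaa
Col4a1 was spotted 10 times and read 7.14, 7.26 and 7.42 in Myf5SOR+, Cspg4- and CD1 Sdc4+ cells, 7.21 and 7.19 in Cspg4- and CD1 Sdc4- cells and 7.26 in Cspg4+ cells. The B195AP+ array stood apart at 6.47. The SD between spots of the probe was 0.046 to 0.093 within an array, and on B195AP+ the mean was 6.44 outside the streaked region and 6.57 inside it, so the value was as low outside the streaks. The Sdc4 difference was 0.32 ± 0.26 (SE; limma adjusted p = 0.750), and 0.08 without that array.

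Col4a2 read 6.74, 6.89 and 6.85 in the Sdc4+ populations, 6.55 and 6.52 in Cspg4- and CD1 Sdc4- cells and 6.73 in Cspg4+ cells. It was the only tested collagen gene with every Sdc4+ array above every Sdc4- array, by 0.29 ± 0.21 (SE; 3 against 2 arrays; limma adjusted p = 0.732). The SD of the difference between Col4a1 and Col4a2 over 6 arrays was 0.13, with r = 0.57 on a range of under 1.3-fold for Col4a2. The second head-to-head pair of the family, Col4a5 and Col4a6, did not follow each other (r = -0.06, SD of the difference 0.72). Col4a5, a chain of kidney and epithelial membranes, read -1.56, -1.29 and -2.40 in the Sdc4+ and -2.09, -2.83 and -2.85 in the Sdc4- populations, and -2.65 in Cspg4+ cells. The groups overlapped, with a difference of 0.84 ± 0.36 (SE; limma adjusted p = 0.580). Col4a4 was dim on all arrays, from -3.91 to -2.50, and above background on 4 of them. Its groups did not overlap, at -0.44, while those of its other probe that passed the filter overlapped, at 0.42, so the probes disagree on the Sdc4 label. Col8a1, of vessel and cornea matrix, was above background only in B195AP+ and CD1 Sdc4- cells, at -2.90 and -3.03. Cspg4- Sdc4- cells, at -4.20, and the Sdc4+ arrays were not above background, so the group means give no limit to the fold.

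The collagen VI chains were bright and nearly level. Col6a1 ranged from 7.09 in B195AP+ to 7.95 in Myf5SOR+ cells, Col6a2 from 5.04 in CD1 Sdc4+ to 5.499 in Cspg4+ cells and Col6a3 from 6.84 in Myf5SOR+ to 7.32 in Cspg4+ cells. These 3 chains join in 1 molecule. Their Sdc4 differences were 0.28 ± 0.25, -0.12 ± 0.19 and -0.04 ± 0.18 (SE), all close to their errors or under them, with limma adjusted p of 0.771, 0.879 and 0.958. The Col6a1 spot lies in the streaked region of the B195AP+ array, and without that region its difference was 0.09. The chains were only loosely related over arrays (r from 0.29 to 0.49), on ranges of under 1.82-fold. Col6a6 differed in kind: it was above background on 2 arrays, both of the Cspg4-cre line, at -3.21 in Cspg4- Sdc4+ and -2.99 in Cspg4+ cells. Cspg4- Sdc4- cells of that line, at -5.96, were not above background. The second probe of Col6a6 was not well above background on any array.

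The FACIT chains held the widest movement. Col12a1, which binds type I fibrils and is abundant in tendon and muscle connective tissue, read -0.27, -0.68 and 1.87 in Myf5SOR+, Cspg4- and CD1 Sdc4+ cells and -1.87, 0.59 and 2.504 in B195AP+, Cspg4- and CD1 Sdc4- cells, with 1.19 in Cspg4+ cells. Both CD1 arrays were the highest and B195AP+ was the lowest, and each Sdc4 group held values from both ends. The Sdc4 difference was -0.10 ± 1.16 (SE; limma adjusted p = 0.986). Its second probe was not well above background on any array. Col20a1, a FACIT of little known function, read -1.38, -0.16 and 0.16 in the Sdc4+ and -2.99, -0.995 and 0.11 in the Sdc4- populations, and -1.58 in Cspg4+ cells. It shared with Col12a1 the low B195AP+ and the high CD1 values (r = 0.71 over 7 arrays). The second probe of Col20a1 was also lowest in B195AP+ cells, at -2.96, and highest on the CD1 arrays, at -0.67 and -0.52 in Sdc4+ and Sdc4- cells (r = 0.95 with the first).

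Col14a1, a FACIT of dermis and tendon that binds fibrils, read -2.43, -2.34 and -2.53 in the Sdc4+ populations, -1.37, -1.76 and -2.26 in the Sdc4- populations and -1.08 in Cspg4+ cells by its helix probe. The groups did not overlap, with a difference of -0.64 ± 0.27 (SE; limma adjusted p = 0.573) and of -0.42 without the streaked region, -0.22 with normexp background correction and -1.87 with the mean of its probes. The second probe, which lies 3′ of the first, read -5.51, -2.70 and -3.26 in the Sdc4+ and 0.37, -0.95 and -1.57 in the Sdc4- populations, and -1.13 in Cspg4+ cells. Its Myf5SOR+ value was not well above background and gives only an upper limit. Both probes put every Sdc4+ array under every Sdc4- array. Over the other 2 Sdc4+ arrays and the 3 Sdc4- arrays the second probe differed by -2.26 and the first by -0.64, so the probes disagree on the size. Col16a1, which is found near fibrils and basement membranes, stayed between 6.79 and 7.64, with overlapping groups and a difference of -0.19. Another of its probes read 3.53, 3.89 and 4.04 in the Sdc4+ and 4.67, 4.38 and 4.22 in the Sdc4- populations. Its groups did not overlap, at -0.61, while those of the helix probe printed above did, at -0.11. The spots of all these probes lie in the streaked region, and the probes disagree on the Sdc4 label. Col9a2 was dim and level, from -3.49 to -2.98. Col9a1, another chain of cartilage collagen IX, was above background on the Cspg4+ array alone, at -2.66 against -5.76 to -3.94 elsewhere. It was at least 2.39-fold above Cspg4- Sdc4- and at least 1.92-fold above Cspg4- Sdc4+ cells. That array had the largest share of spots above background, whose part in this was not tested.

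**Figure D4:**
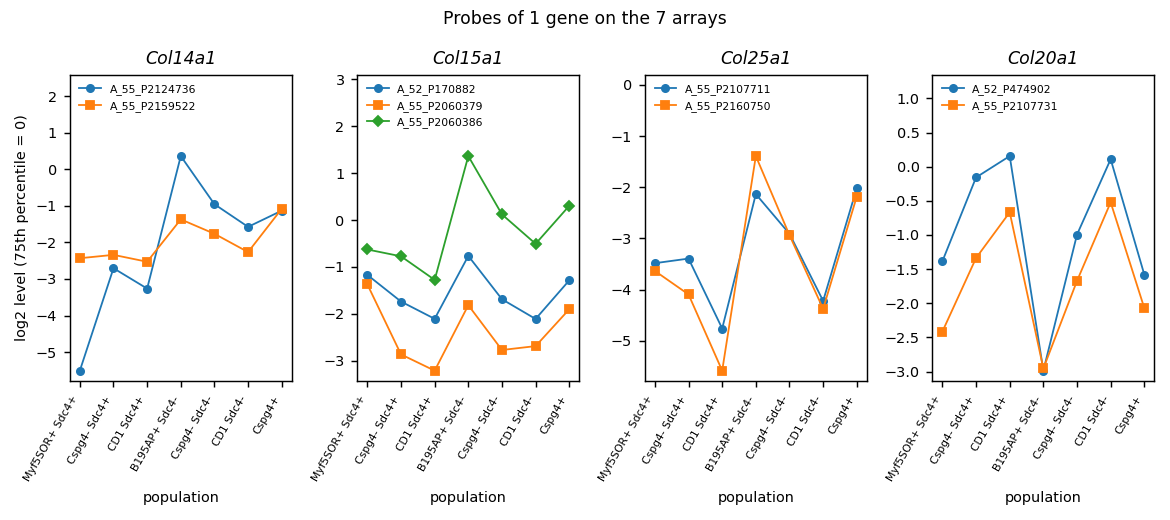
Levels (log2, array 75th percentile at 0) on the 7 arrays of the probes above background for Col14a1, Col15a1, Col25a1 and Col20a1, 1 line per probe. The probes of Col25a1 and Col20a1 run in parallel, with r of 0.96 and 0.95, while those of Col14a1 part at B195AP+ (0.37 and -1.37) and at Myf5SOR+, where the lower one (-5.51) was not well above background.

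The multiplexin Col15a1, of the zone between basement membrane and fibres around muscle and vessels, was the only tested collagen gene whose groups did not overlap and whose means differed by at least 2-fold. It read -0.63, -0.77 and -1.28 in Myf5SOR+, Cspg4- and CD1 Sdc4+ cells, 1.36, 0.12 and -0.51 in B195AP+, Cspg4- and CD1 Sdc4- cells, and 0.30 in Cspg4+ cells. The difference was -1.22 ± 0.48 (SE; limma adjusted p = 0.553), and -0.70 without B195AP+. Within lines it was -0.89 and -0.77. These values come from the helix probe printed above. Another pair of probes in the last part of the gene, which overlap by 48 bases, gave differences of -0.15 and -0.06 with overlapping groups, so the probes disagree on the Sdc4 label. On both of them CD1 Sdc4+ or CD1 Sdc4- was the lowest array. Col18a1, the other multiplexin and the source of endostatin, ranged from 5.88 in Cspg4- Sdc4+ to 6.74 in CD1 Sdc4- cells, and its probes tracked each other (r = 0.91).

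The transmembrane chains split by population. Col25a1, known from motor innervation of muscle and from amyloid plaques, read -3.48, -3.39 and -4.76 in the Sdc4+, -2.13, -2.91 and -4.22 in the Sdc4- populations and -2.02 in Cspg4+ cells. It was above background only in B195AP+, Cspg4- Sdc4- and Cspg4+ cells. The measured difference was -0.79 ± 0.60 (SE; limma adjusted p = 0.739). CD1 Sdc4- cells and the Sdc4+ arrays were not above background, so the group means give no limit to the fold. The second probe of Col25a1 that passed the filter was high and low on the same arrays, from -5.58 in CD1 Sdc4+ to -1.39 in B195AP+ cells (r = 0.96). Col23a1 read 3.89, 3.35 and 3.30 in the Sdc4+ populations, 2.94, 3.67 and 2.52 in the Sdc4- populations and 3.17 in Cspg4+ cells. Its 3 probes agreed on the lowest array, CD1 Sdc4-, with r of 0.80 to 0.88. Col17a1, of the hemidesmosomes that hold keratinocytes to the basement membrane, was dim at -3.83 to -2.40.

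Col7a1, whose anchoring fibrils fasten the epidermal basement membrane to the dermis, read 3.89 in Myf5SOR+, 4.26 in Cspg4- and 5.36 in CD1 Sdc4+ cells, and 5.77, 5.35 and 5.42 in B195AP+, Cspg4- and CD1 Sdc4- cells. CD1 Sdc4+ alone joined the Sdc4- range, and Cspg4+ cells were at 5.46. The difference was -1.01 ± 0.39 (SE; limma adjusted p = 0.553). It was -1.10 in Cspg4- cells and -0.06 in CD1. Col26a1 was brightest in CD1 Sdc4- cells at -2.12, against -4.06 to -3.28 elsewhere. Its second probe, which shares 55 bases with the first, gave -2.78 there but -2.59 in Cspg4+ cells, so that the highest array depended on the probe. The second probe read -5.48, -5.57 and -5.51 in the Sdc4+ and -3.21, -3.69 and -2.78 in the Sdc4- populations. Its groups did not overlap, at -2.30, while those of the first overlapped, at -0.72, so the probes disagree on the Sdc4 label. Each probe was above background on 3 arrays, and the spot of the second lies in the streaked region.

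Pairs of single arrays compare the Sdc4 fractions of 1 line, and carry no test. In the Cspg4- line 5 of 28 measurable collagen genes differed at least 2-fold (8.61% of all genes): Col4a5 was 2.91-fold, Col17a1 at least 2.69-fold and Col11a2 at least 2.09-fold higher in Sdc4+ cells, and Col12a1 2.41-fold and Col7a1 2.14-fold lower. In CD1 the 3 of 28 (4.47% of all genes) were Col26a1, Col3a1 and Col1a1, which were 2.96-fold, 2.18-fold and 2.01-fold lower in Sdc4+ cells. No gene was on both lists. With Sdc4 held fixed, CD1 against Cspg4- cells gave 5 of 28 in the Sdc4+ fraction (10.0% of all genes) and 6 of 29 in the Sdc4- fraction (9.53%). Col12a1 was on both lists, 5.85-fold and 3.77-fold higher in CD1. In the Sdc4+ fraction Col7a1 was also higher in CD1, by 2.15-fold, while Col3a1, Col4a5 and Col1a2 were 2.55-fold, 2.15-fold and 2.13-fold lower. The Cspg4- spot of Col1a2 was near saturation, and the 75th percentile was 128 on that array and 242 on CD1 Sdc4+, so its fold is uncertain. In the Sdc4- fraction Col26a1 was at least 2.90-fold, Col17a1 at least 2.23-fold and Col20a1 2.15-fold higher in CD1, Col23a1 was 2.22-fold and Col25a1 at least 2.03-fold lower.

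The Cspg4+ array was set against the mean of the Sdc4+ and Sdc4- groups, with the lone array assumed to vary like the others. Its value was higher for 22 of the 29 collagen genes and lower for 7, with a median of 0.22 against 0.03 for all genes. This direction depends on the scaling: with each array centred on its median the collagen median was -0.56 and that of all genes -0.75. No gene passed the adjusted threshold in limma (0 of 19761, 0%). At an unadjusted p under 0.05 Col11a2 (1.21 ± 0.41, SE), Col14a1 (1.04 ± 0.35) and Col4a4 (0.91 ± 0.29) were higher (2.56% of all genes) and Col27a1 (-0.89 ± 0.29) lower (2.60%), each with a limma adjusted p of 0.801.

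Against single arrays of its own line, Cspg4+ cells differed at least 2-fold from Cspg4- Sdc4- cells in 3 of 29 collagen genes (5.30% of all genes) and from Cspg4- Sdc4+ cells in 7 of 29 (11.0%). In the first, Col11a2 was at least 3.23-fold and Col17a1 at least 2.39-fold higher and Col27a1 2.42-fold lower. In the second, Col12a1 was 3.66-fold, Col25a1 at least 2.60-fold, Col14a1 2.40-fold, Col7a1 2.30-fold and Col15a1 2.11-fold higher, with Col20a1 2.68-fold and Col4a5 2.55-fold lower. The pairs share the Cspg4+ array, so the lists are not independent.

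The traced populations were set against the other arrays of their group. Myf5SOR+ cells differed from the mean of Cspg4- and CD1 Sdc4+ cells in 1 of 28 collagen genes (6.81% of all genes), Col20a1, which was 2.61-fold lower. B195AP+ cells differed from the mean of Cspg4- and CD1 Sdc4- cells in 5 of 27 (15.4% of all genes). Col15a1 was 2.94-fold, Col25a1 2.70-fold and Col24a1 2.68-fold higher, and Col12a1 was 10.6-fold and Col20a1 5.83-fold lower. Of these the probes of Col12a1, Col20a1, Col15a1 and Col24a1 lie outside the streaked region, and the second probe of Col25a1, outside it, was highest on B195AP+ at -1.39.

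The enzymes, chaperones, proteinases and receptors of collagen were taken as a second list of 43 gene names on the array, of which 39 were tested. P3h4 is also counted under its older name Leprel4, at -0.12 and -0.03, so these counts hold that gene more than once. In the Sdc4 comparison 18 means were higher and 21 lower, with a median of -0.04. None passed the adjusted threshold in limma, and at an unadjusted p under 0.05 there was 1 higher (Sec24d, for export of procollagen from the endoplasmic reticulum, at 0.64 ± 0.20, SE) and 3 lower, against 3.29% higher and 5.41% lower of all genes. Plod2, a lysyl hydroxylase that prepares collagen for cross-links, read -0.12, -0.74 and -0.68 in the Sdc4+ and 1.07, 0.25 and 0.60 in the Sdc4- populations. Its groups did not overlap, and the difference was -1.15 ± 0.29 (SE; limma adjusted p = 0.475), with -0.99 in Cspg4- cells and -1.28 in CD1. The integrin chains Itga2 and Itga1, which bind collagen at the cell surface, were the other lower genes. Itga2 differed by -1.15 ± 0.36 (SE; limma adjusted p = 0.513), or -0.84 without the streaked region, and Itga1 by -1.02 ± 0.36 (limma adjusted p = 0.530). Serpinh1, the chaperone of the collagen helix, stayed between 5.90 and 6.31 on the 7 arrays.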

How the data were processed

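The deposited intensity of each spot came, per the file headers, from Feature Extraction 11.5.1.1 by Agilent, with background subtracted and no scaling between arrays. The deposited series table, on a log2 scale, was made with lumi, per the submitters' processing notes (no version is given), and served as an alternative. The well-above-background, saturation and outlier flags are those of the scanner files. Control spots were left out, outlier spots were set to missing, and log2 intensity was set relative to the 75th percentile of its array. Spots of a probe were averaged. Probes well above background on at least 3 of 7 arrays were kept, and the probe with the highest mean stood for its gene; 27741 of the 55681 probes were named through RefSeq accessions and the others kept the files' names.

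Sdc4+, Sdc4- and Cspg4+ means were fitted over 19761 genes in limma 3.58.1 (R 4.3.3), with Benjamini-Hochberg adjustment at 0.05, after the procedure was tested on simulated data. An exact permutation test of 3 against 3 arrays cannot go below p = 0.1. "At least" folds set the bright side against the higher of the dim probe's value and the lowest value well above background on that array. Comparisons of single arrays carry no test, and at least 2-fold was called where 1 side was above background. Genes were named with values on every array if their Sdc4 groups were apart by at least 2-fold, if both lines changed at least 2-fold alike, if Cspg4+ lay at least 2-fold outside the other arrays, if the range reached 16-fold, or if they were chains of collagen I, III, IV (a1, a2), V or VI. The rule named 14 genes; Col4a5, Col7a1, Col14a1, Col20a1, Col23a1, Col25a1, Col27a1, Sec24d, Itga1, Serpinh1 and the genes given in part were added after their values were seen. Members, lists and tests were chosen with earlier results of these data known. The labels give biotin, but the scans hold 1 green channel.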

Additional observations from a re-analysis of the deposited data

Results flagged for a closer look

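Among collagen genes well above background and not saturated on the 4 arrays of both lines, 1 moved in opposite directions with Sdc4 in CD1 and in Cspg4- cells by at least 0.25 log2 units each. Col23a1 differed between Sdc4+ and Sdc4- cells by 0.78 in CD1 and by -0.33 in the Cspg4- line, a gap of 1.101. Each value rests on 1 array per population, so the difference between the lines was not tested. Col1a2 read -0.28 in CD1 and 0.49 in the Cspg4- line. In the second the Cspg4- Sdc4- spot was saturated and the Cspg4- Sdc4+ spot was brighter still before scaling, so its direction cannot be read.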

How the results depend on the processing

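Over 20 alternatives, 600 of 640 values of single genes kept their direction and side of the threshold and 40 turned sign. With arrays scaled to their median the Cspg4+ differences became -0.38 (Col1a1), -0.69 (Col1a2), -0.0057 (Col3a1), -0.63 (Col4a1), -0.75 (Col4a2), -0.60 (Col5a1), -0.56 (Col5a2), -0.52 (Col6a1), -0.55 (Col6a2), -0.42 (Col6a3), -0.19 (Col15a1) and -0.33 (Col7a1), and the collagen median -0.56, beside -0.75 for all genes; with quantile scaling the collagen median was 0.037. Other sign changes lay near 0. For the Sdc4 difference these were Col5a3 with median scaling (0.020), the line as a fixed block (0.082) or random block (0.034), without Myf5SOR+ and B195AP+ (0.082) and without the streaks (0.10); Col6a1 with the fixed block (-0.012) and without Myf5SOR+ and B195AP+ (-0.012); Col1a2 with normexp (-0.047); Col6a2 (0.044) and Col12a1 (0.17) without CD1. For Cspg4+ they were Col5a3 with normexp (0.041), the fixed (0.087) and random block (0.024); Col1a2 with the fixed (-0.23) and random block (-0.15), array weights (-0.0009) and without CD1 (-0.12); and Col4a1 without Myf5SOR+ and B195AP+ (-0.0096). Leaving out 1 array in turn, Sdc4 differences ranged across 0 for Col12a1 (-1.24 to 0.95), Col1a2 (-0.12 to 0.43), Col5a3 (-0.16 to 0.10) and Col6a3 (-0.086 to 0.0001), and the Cspg4+ value for Col1a2 (-0.039 to 0.23).

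Genes past the adjusted limma threshold numbered 0 in the Sdc4 comparison, 1 with every probe as a unit and 5 with the line as a random block (correlation 0.601). For Cspg4+ they numbered 0, 29 with that block, 11 in the deposited table and 2842 without a filter, where Col8a2 and Col13a1, not well above background on any array, were 2 collagen calls. Without 1 array the Sdc4 count was 0 to 1 (1 without CD1 Sdc4-), and the collagen median was -0.21 (without Cspg4- Sdc4-) to -0.050 (without CD1 Sdc4-). With normexp, collagen genes at least 2-fold apart numbered 1 and not 5 (Sdc4 in Cspg4- cells), 3 and not 5 (CD1 against Cspg4- in Sdc4+), 2 and not 6 (in Sdc4-), 0 and not 3 (Cspg4+ against Cspg4- Sdc4-), 2 and not 7 (against Cspg4- Sdc4+) and 3 and not 5 (B195AP+). In the deposited table they numbered 1 (Sdc4 in CD1), 3 (CD1 against Cspg4- in Sdc4+) and 4 (Cspg4+ against Cspg4- Sdc4+), with median scaling 3 (CD1 against Cspg4- in Sdc4+), and with quantile scaling 2 (Myf5SOR+). The cause was not tested. No paired analysis was possible because every label carries replicate number 1; the line served as a block instead. Dim probes limit the precision, and the 7 arrays limit the tests.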
